A study of Homo sapiens with 2 samples.

Results

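The peaks described here were 635 sites of dCas9-BFP-DNMT3A ChIP-seq signal in HEK293T, a widely used line derived from human embryonic kidney, that carried a partial match to the *uPA* gRNA T2. A peak was included when its longest unbroken T2 match next to an NGG protospacer adjacent motif (PAM) was 5 to 10 bases. The match was counted from the PAM-proximal end of the guide, on either strand, and any base of the 23-base site (20 guide bases and the PAM) had to lie within 70 bp of the peak summit. They made up 8.20% (95% Wilson interval 7.61 to 8.83) of the 7748 peaks on chromosomes 1 to 22 and X. The full list held 7757 peaks. Of the other peaks, 760 had a T2 match of 11 or more bases and 6353 had a match under 5 bases. The longest match was fixed by the reference sequence, so fold enrichment, tag counts and gene positions played no part in the choice.

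Cells received 500 ng of the fusion construct, in which catalytically dead Cas9, blue fluorescent protein and the catalytic domain of DNMT3A are joined, together with 500 ng of gRNA plasmids for T1 to T5, which tile the *uPA* (*PLAU*) promoter. Chromatin was taken 48 hours later and precipitated through the HA tag. There was 1 ChIP sample of 62723055 tags, called against 1 input sample of 62723050 tags, and no sample without gRNAs was part of this comparison. The methods describe triplicates, whereas 1 list of peaks was analysed, so the spread between replicates is unknown. The authors also selected peaks shared by the triplicates and removed those in repeats and rDNA. Neither step was applied here, so the peaks below are not the study's final set of binding sites. All values below are descriptions of that list, no p-values are given, and the intervals cover counting error only. As the 5 gRNAs were delivered together, a peak cannot be assigned to T2 by the experiment itself.

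Cas9 first recognises the PAM and then pairs the guide with the DNA strand from the PAM outwards. Hence the PAM-proximal bases of the guide, the seed, usually have to match before pairing can spread to the distal bases. A nuclease-dead Cas9 can therefore rest on sites that match only the seed, without the extended pairing that cutting would need. DNMT3A is a de novo DNA methyltransferase that adds methyl groups to cytosines at CpG sites.

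The guide and the site with the highest fold enrichment at each match length are shown first because the values below depend on where each match ends. Capitals mark the 11 PAM-proximal bases in the guide, and in each site the unbroken T2 match and the GG of the PAM. A motif search by the authors in ChIP peaks of this experiment had singled out this stretch of the guide. The frame of 11 bases and the focus on T2 were thus not chosen independently of these peaks. All sequences are written 5′ to 3′, those of the sites from the hg19 (GRCh37) reference on the strand given below, and each is named after the protein-coding gene that holds the summit or lies nearest to it.
uPA T2 guide: gagccgggcGGGAGAGGGAG
PELI1: ctctaggggcagcacGGGAGaGG
NEMF: ggcattgagactacAGGGAGaGG
GFOD1: gggtggggggtttGAGGGAGaGG
LRRC32: aaagcaagcggaAGAGGGAGgGG
VSIG10: agaggcggagaGAGAGGGAGaGG
SH3RF2: cgattgggcaGGAGAGGGAGaGG

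Positions are counted from 1 at the PAM-proximal end, and a substitution gives the guide base, the position and the site base. The site near *PELI1*, an E3 ubiquitin ligase of immune signalling, matched 5 bases (chr2:64441148-64441170, plus strand), stopped at A6C and lay between genes. The site near *NEMF*, a factor of ribosome quality control, matched 6 bases (chr14:50324442-50324464, plus strand), stopped at G7C and lay between genes. The site in an intron of *GFOD1* matched 7 bases (chr6:13483446-13483468, plus strand) and stopped at A8T. The site nearest to *LRRC32*, a surface receptor for latent TGF-beta, matched 8 bases (chr11:76436104-76436126, minus strand), stopped at G9A and lay between genes. The site in an intron of *VSIG10* matched 9 bases (chr12:118536053-118536075, minus strand) and stopped at G10A. The site in an intron of *SH3RF2*, a RING-type E3 ligase, matched 10 bases (chr5:145362421-145362443, plus strand) and stopped at G11A.

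A property of T2 itself affects how such sites are read. Positions 11 to 7 of the guide spell the same 5 bases as positions 5 to 1, and positions 6 to 4 spell AGG, which is itself a PAM. Any site that carries the 11 bases therefore holds a second, nested T2 site 6 bp away on the same strand, and so does a site whose only mismatch in the 11 bases falls at positions 1 to 3, or at position 6, which becomes the free base of the nested PAM. The 3 sites shown above with 5, 6 and 7 matched bases were all nested in this way. The overlapping sites are shown with the 11 bases in capitals, the mismatched base in lower case and the GG of the PAM in capitals.
PELI1 overlapping site: gggcagcacGGGAGAGGaAGgGG
NEMF overlapping site: gagactacaGGGAGAGGaAGaGG
GFOD1 overlapping site: ggggtttgaGGGAGAGGaAGcGG

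The overlapping sites were at chr2:64441154-64441176, chr14:50324448-50324470 and chr6:13483452-13483474, all on the plus strand. Each of them matched 10 of the 11 bases, with G3A as the only mismatch, but by an unbroken count from the PAM each matched 2 bases. The count of an unbroken match therefore understated the resemblance to T2 at these 3 peaks.

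Fold enrichment, the ratio over local background given by MACS, lay between that of the longer matches and that of the peaks without a seed match. Its median was 4.57 (interquartile range 3.87 to 5.66) in the 635 peaks, against 6.01 (5.02 to 7.21) at matches of 11 or more and 3.63 (3.30 to 4.20) at matches under 5. The lowest value was 2.46 and the highest 11.12. A fold enrichment of at least 5 was reached by 235 of the 635 peaks (37.0%, 95% interval 33.3 to 40.8), where 14.0% of all 7748 peaks reached it. It was reached by 75.5% of peaks with a longer match and by 4.31% of those with a match under 5. This share also varied with GC content within 70 bp of the summit. From below 40% GC to 55% and above, it rose from 25% to 43.9% in the 635 peaks. At matches under 5 it rose from 3.26% to 16.7%, and at 11 or more it went from 84.4% to 72.7%. The part of GC content in the contrasts between groups was not tested. A score of at least 50, on the scale of -10 times log10 of the peak's *P* value, was reached by 194 of the 635 (30.6%), where 15.8% of all peaks reached it. The maximal FDR estimate of 100% was carried by 420 of the 635 (66.1%), beside 81.7% of all peaks, 88.3% at matches under 5 and 39.7% at 11 or more. The peaks held a median of 35 tags, against 39 at longer matches and 34 at matches under 5, so the groups differed less in tags than in fold enrichment. The 2 measures are not interchangeable. Among peaks with 5 matched bases, those at a fold enrichment of 4.21 held from 19 to 150 tags.

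**Figure D1:**
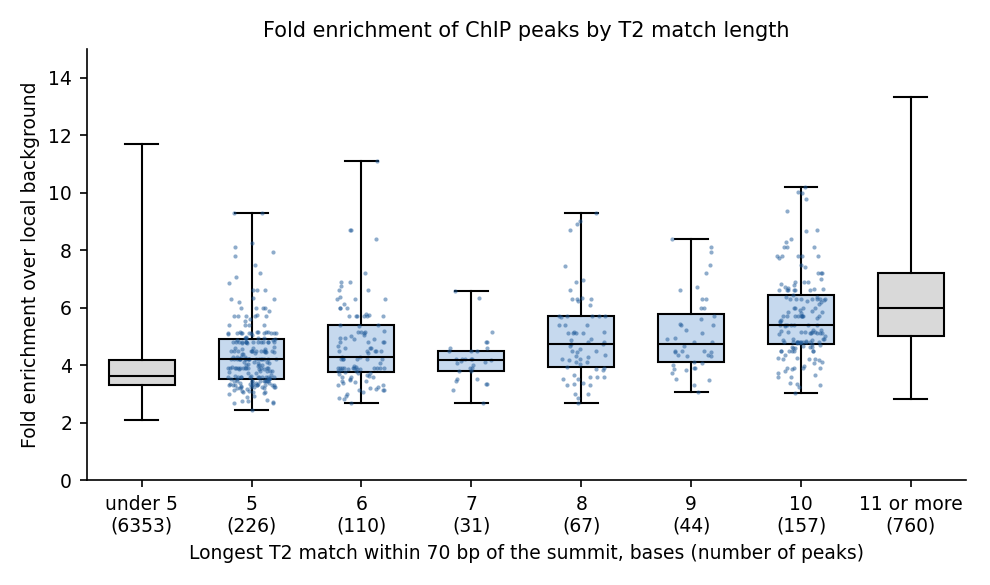
Fold enrichment (vertical axis, ratio) of each peak against the longest T2 match near its summit (horizontal axis, bases, with the number of peaks). Boxes give the quartiles and the median, whiskers the full range and points the single peaks with matches of 5 to 10 bases; the median rose from 4.21 at 5 bases to 5.41 at 10 bases, and the ranges of all groups overlapped.

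By match length, median fold enrichment was similar from 5 to 7 bases and higher from 8 bases on. The 226 peaks with 5 matched bases had a median fold enrichment of 4.21 (95% interval of the median 3.97 to 4.30). The 110 peaks with 6 bases had a median of 4.30 and the 31 peaks with 7 bases one of 4.18, so the first 3 lengths did not differ beyond their intervals. The medians were 4.75 at 8 bases (67 peaks) and 4.74 at 9 bases (44 peaks). At 10 bases, the 157 peaks had a median of 5.41 (5.11 to 5.71), still below that at 11 or more bases (5.76 to 6.19). The share with a fold enrichment of at least 5 was 22.6%, 32.7% and 9.68% at 5, 6 and 7 bases, and 43.3%, 40.9% and 62.4% at 8, 9 and 10 bases. Below the seed length there was no such gradient, as the medians at 0 to 4 matched bases stayed between 3.61 and 3.74. Across the 635 peaks, which share 1 library, match length and fold enrichment had a Spearman's rho of 0.37, and match length and tag number one of 0.11.

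The longer partial matches also lay closer to the summit. The centre of the leading site, the longest match and the nearest to the summit where several were equally long, was a median of 27, 28.5 and 30 bp from the summit at 5, 6 and 7 bases. It was 17, 15 and 18 bp away at 8, 9 and 10 bases, and 13 bp at 11 or more. A site placed evenly over the permitted range would give 41 bp. Within 20 bp of the summit lay 40.3% of the leading sites at 5 bases and 60.5% of those at 10 bases.

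The number of peaks at each length has to be read against the number of such sites in the genome, which falls steeply with length. In GRCh37 there were 473757 NGG sites with exactly 5 matched bases and 2225 with exactly 10. Of all sites with 5 bases, 0.194% lay near a summit (0.182 to 0.207), against 9.62% (8.46 to 10.9) of those with 10 bases and 19.2% of those with 11. The rise ended there, as 30 of 366 sites with 12 or more bases lay near a summit (8.20%, 5.80 to 11.5). Much of the value at 5 bases stemmed from sites beside a longer match, because 602 of the 921 sites near a summit were at peaks with a match of 11 or more. When sites within 200 bp of such a match were left out, the share was 0.0668% at 5 bases (0.0598 to 0.0746), 0.0843% at 6 and 0.0728% at 7, beside 0.0532% at 4 bases. It then was 0.515% at 8 bases, 1.02% at 9 and 8.41% at 10. The census did not ask whether reads can map uniquely to a site, whereas the peaks rest on uniquely mapped reads, so copies in repeats are counted among the sites without a summit.

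These shares fell further when sites within 200 bp of any site with 1 mismatch in the 11 bases, itself included, were left out as well. Then 183 of 450842 sites with 5 bases lay near a summit. This was 0.0406% (0.0351 to 0.0469), beside 0.0326% (0.0294 to 0.0362) at 4 bases and 0.0353% at 0 bases. The share was 0.0488% (0.0384 to 0.0621) at 6 bases and 0.0393% (0.0252 to 0.0614) at 7 bases, so that the intervals at 5 and 7 bases overlapped that at 4 bases and the interval at 6 bases lay just above it. At 8 bases it was 0.0854% (0.0449 to 0.162, 9 sites) and at 9 bases 0.255% (0.123 to 0.525, 7 sites).

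**Figure D2:**
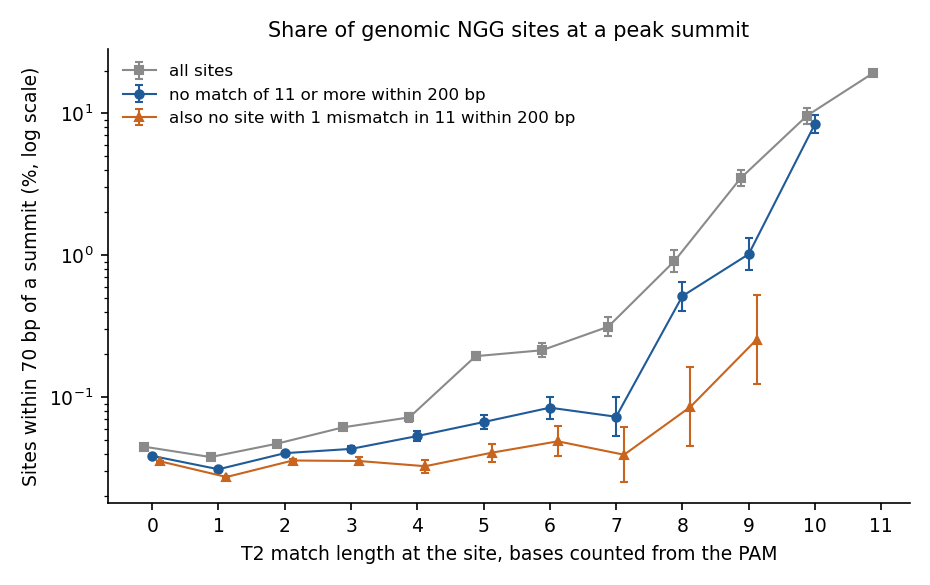
Share of genomic NGG sites within 70 bp of a summit (vertical axis, percent, log scale) by T2 match length (horizontal axis, up to 11 bases), for all sites, for sites with no match of 11 or more within 200 bp, and for sites that also have no 1-mismatch site within 200 bp. Bars are 95% Wilson intervals; in the last set the share at 5 bases was 0.0406%, close to the 0.0326% at 4 bases, whereas sites with 10 bases stood at 8.41% in the set before it.

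The partial-match peaks were divided by whether any NGG site near the summit matched T2 at 10 of the 11 PAM-proximal bases. This division was made after the values had been seen. Such a site was present at 370 of the 635 peaks (58.3%), as the leading site itself in 258 of them. The 370 peaks had a median fold enrichment of 5.11, and 53.2% of them reached 5. The other 265 peaks had a median of 3.91, and 14.3% of them reached 5, beside 14.0% of all peaks and 4.22% of the 6326 peaks that had neither a seed match nor a 1-mismatch site. These shares were not compared at like GC content. All 157 peaks with 10 matched bases have such a site by definition, and it was also present at 86.6% of those with 8 bases and 84.1% of those with 9. At 5 to 7 bases it was present at 118 of 367 peaks (32.2%), where the median was 4.93 with it and 3.91 without it. The ranges overlapped, as a fold enrichment of 5 was reached by 55 of the 118 peaks and by 35 of the other 249.

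**Figure D3:**
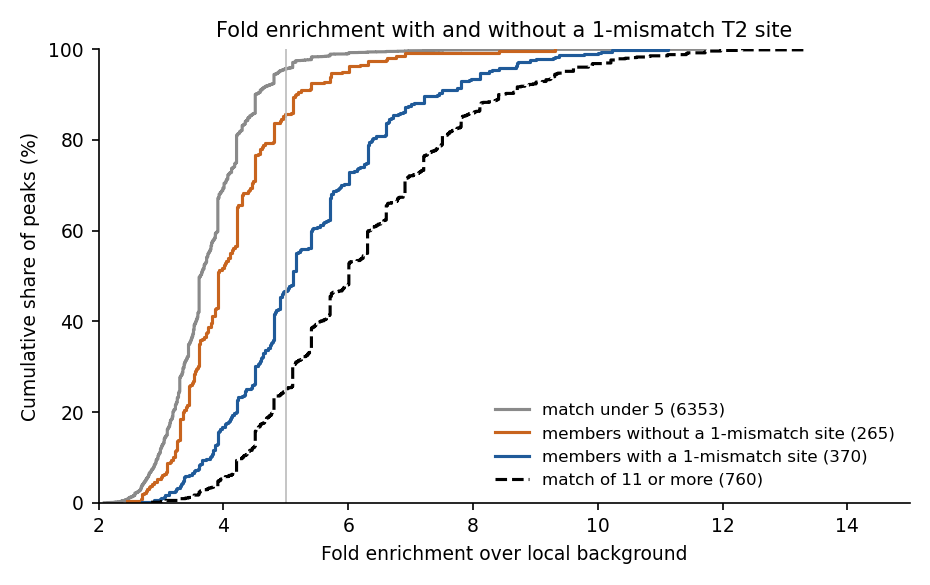
Cumulative share of peaks (vertical axis, percent) up to a given fold enrichment (horizontal axis, ratio) for matches under 5, for partial matches without and with a 1-mismatch site near the summit, and for matches of 11 or more. The grey line marks a fold enrichment of 5, which 14.3% of the partial-match peaks without such a site and 53.2% of those with one reached or exceeded.

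The position of the leading site differed in the same way. Its median distance from the summit was 17 bp in the 370 peaks with a 1-mismatch site and 36 bp in the 265 without. At 5 to 7 bases the medians were 16.5 bp and 36 bp. Tag numbers were a median of 38 and 33, and GC content within 70 bp of the summit a median of 48.2% and 46.1%.

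**Figure D4:**
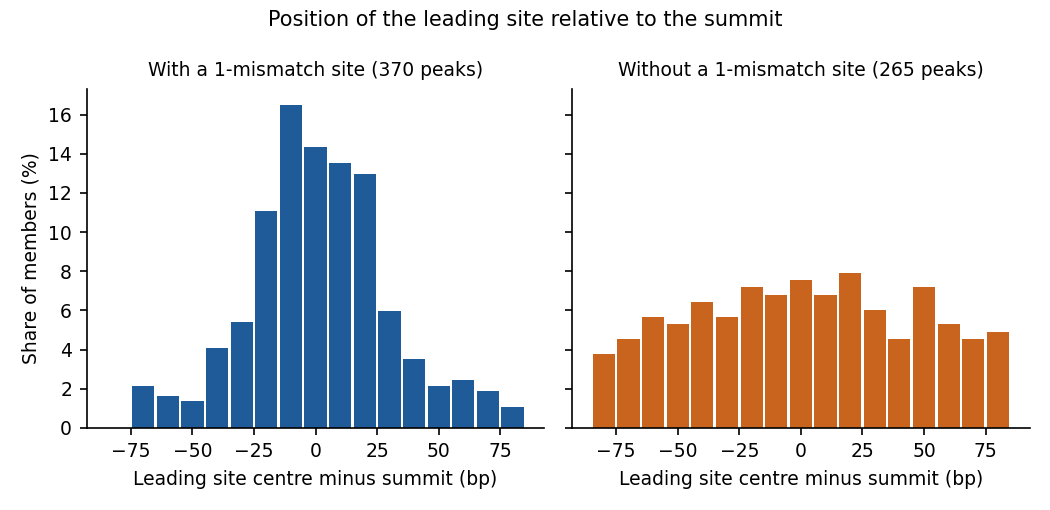
Share of peaks (vertical axis, percent) by the position of the centre of the leading site relative to the summit (horizontal axis, bp), for the 370 partial-match peaks with a 1-mismatch site and the 265 without. Leading sites gathered around the summit in the first panel (median distance 17 bp) and were spread over the permitted range in the second (median distance 36 bp).

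The share also varied with the place of the only mismatch. Among sites with no 11-base match within 200 bp, those with a mismatch at position 11 lay near a summit in 8.41% of cases (156 of 1856). Those with a mismatch at position 10 did so in 1.81% (1.35 to 2.43) and those at position 9 in 2.34% (1.80 to 3.04). The shares were lowest at positions 7 and 8, with 2 of 1796 sites (0.111%) and 3 of 2045 sites (0.147%), and at position 2, with 0.178%. A mismatch at position 6 gave 0.776%. Position 3 stood out on the PAM side, with 81 of 2092 sites (3.87%, 3.13 to 4.79), and nearly all of these were G3A, with 77 of 995 sites (7.74%). Such a site matches 2 bases when counted from the PAM, so its peak was included through another site, in most cases the nested one. Of the 367 peaks with 5 to 7 bases, 98 (26.7%) had a leading site nested in this way, and the overlapping site had its mismatch at position 3 in 71 of them. Those 98 peaks had a median fold enrichment of 4.95, and 47 of them reached 5.

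The base found at the mismatch was uneven as well. At 10 matched bases, 129 of the 157 leading sites were G11A (82.2%, 75.4 to 87.4), where A makes up 57.2% of all genomic sites of this length. The peaks with G11A had a median fold enrichment of 5.71, and the 27 with G11T one of 4.82. G11C occurred at 1 peak (0.637%), where it makes up 10.2% of the genomic sites. Measured per genomic site, with sites near an 11-base match left out, 11.7% (9.93 to 13.7) of G11A sites, 4.16% (2.87 to 5.99) of G11T sites and 0.885% (0.156 to 4.84) of G11C sites lay near a summit. At 9 bases, 42 of 44 leading sites were G10A (95.5%), beside 76.3% in the genome, and none was G10C, where the upper 95% limit for that count is 8.03%. At 8 bases, G9A was found at 39 and G9C at 24 of 67 peaks, with medians of 4.91 and 4.75. Per genomic site, 0.736% (0.539 to 1.00) of G9A, 0.442% (0.299 to 0.652) of G9C and 0.179% (0.0695 to 0.458) of G9T sites were near a summit.

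At the shorter lengths the commonest base among the peaks lay closer to its genomic share, though several genomic shares fell outside the intervals. At 5 bases, A6G was found at 58.4% of the 226 peaks (51.9 to 64.6) and in 53.5% of genomic sites. A6T was found at 31.0% (25.3 to 37.3) and in 38.2%. The 24 peaks with A6C had the highest median of the 3, 4.96 against 4.21 for A6G. At 6 bases, G7A was found at 43.6% of 110 peaks (34.7 to 53.0) and in 34.5% of genomic sites. G7C was found at 34.5% (26.3 to 43.8) and in 46.9%. At 7 bases, A8G was found at 24 of 31 peaks (77.4%, 60.2 to 88.6) and in 68.7% of genomic sites. Over all lengths the mismatched base was a purine in 65.2% of the peaks (61.4 to 68.8), beside 50.4% of the sites away from an 11-base match.

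Beyond the mismatch, the match to T2 often resumed up to position 11 at 8 and 9 bases. Position 11 is also where the frame taken from the motif ends, so this boundary is not independent of the data. At 8 bases, position 10 matched T2 in 80.6% of the peaks and position 11 in 86.6%, beside 37.4% and 39.4% of genomic sites away from summits and from 11-base matches. At 9 bases, position 11 matched in 77.3%, beside 44.5%. Position 12, the first base outside the 11, matched in 7.46% at 8 bases and 13.6% at 9 bases, beside 16.2% and 11.9%. Farther out, differences went both ways, and those given here are single positions out of many compared. Position 14 matched at 8 bases in 49.3% of the peaks (37.7 to 60.9), beside 33.7%. At 10 bases, position 12 matched in 33.8% (26.8 to 41.5), beside 24.4%. At 6 bases, position 13 matched in 20% (13.6 to 28.4), beside 28.8%, and position 17 in 15.5% (9.88 to 23.4), beside 24.4%. At 7 bases, position 11 matched in 29.0% of the peaks (16.1 to 46.6), beside 41.0%, and at 6 bases in 35.5% (27.1 to 44.7), beside 38.6%. At 5 bases, no position beyond the mismatch differed from the genome by more than 5.87 percentage points. The sites with the most matched bases over the whole guide had 17 of 20, at 10 bases, where the median was 13.

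PAMs of the form AGG were frequent. The first base of the PAM at the leading site was A in 326 peaks (51.3%, 47.5 to 55.2), G in 29.6%, T in 14.8% and C in 4.25%. In the genome away from 11-base matches, A preceded GG in 32.3% of the sites with 5 to 10 bases and G in 42.1%. Per genomic site, 0.172% (0.155 to 0.190) with A lay near a summit, against 0.0812% (0.0715 to 0.0923) with G and 0.0729% with T. Sites nested beside a mismatch at positions 1 to 3 carry AGG by construction, and their part in these values was not tested.

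Most of the peaks had 1 T2 site near the summit. There were 528 such peaks (83.1%), 92 with 2 sites, 10 with 3 and 5 with 4 or more, and the largest number was 7. Median fold enrichment was 4.51 with 1 site, 4.81 with 2, 5.51 with 3 and 7.94 with 4 or more. The last 2 values rest on 10 and 5 peaks. At 5 matched bases the medians were 4.03 for the 182 peaks with 1 site and 4.82 for the 44 peaks with 2 or more, whereas at 10 bases they were 5.41 (142 peaks) and 5.19 (15 peaks). Neighbouring sites lay on the same strand in 118 of 133 pairs. The commonest spacing was 6 bp (28 pairs), followed by 7 bp (20 pairs), so these sites overlap each other. For comparison with matches of 11 or more the number is not informative, because 759 of those 760 peaks had 2 or more sites through the nested one.

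The 5 peaks with the most sites differed widely in enrichment. A peak between genes with *RIPPLY3*, a transcriptional corepressor, as its nearest gene held 7 sites and 98 tags at a fold enrichment of 8.72. Its window was purely purine on 1 strand, its leading 23-base site occurred 13 times in the census, and another part of the peak held an 11-base match. The peak in *VSIG10* held 6 sites, 45 tags and a fold enrichment of 8.41. A peak with *TDRD3*, a reader of methylated arginine, as its nearest gene held 4 sites at 7.94. The peak in an intron of *CELF4*, an RNA-binding splicing regulator, held 5 sites at 4.21, and the peak upstream of *PTPRN2*, a phosphatase-like protein of secretory granules, held 4 sites at 3.91.

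The strongest peaks at 10 bases all stopped at G11A. The peak in *SH3RF2* had 75 tags and a fold enrichment of 10.22. The peak in an intron of *ABCC8*, the regulatory subunit of the ATP-sensitive potassium channel of beta cells, had 61 tags and 10.05. The peak with *CYSTM1* as its nearest gene had 56 tags and 10.01. Their leading sites lay 2 to 21 bp from the summit. At 9 bases the peaks in *VSIG10* (8.41), in *INPP5A*, an inositol phosphatase (8.11), and near *TDRD3* (7.94) led, all with G10A. At 8 bases the leaders were those near *LRRC32* (49 tags, 9.29), upstream of *HAPLN2*, a link protein of brain extracellular matrix (46 tags, 9.01), and near *KCNF1*, a potassium channel subunit (47 tags, 8.92), each with 1 mismatch in the 11 bases.

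Of the 3 strongest peaks at each of 5, 6 and 7 bases, all but 1 had a 1-mismatch site near the summit. The peak near *NEMF* had the highest value of all 635, with 54 tags and a fold enrichment of 11.12. The peaks near *PELI1* (57 tags, 9.31), in *KCNH5*, a voltage-gated potassium channel (47 tags, 8.25), and in the 3′ UTR of *RBMS2*, an RNA-binding protein (65 tags, 8.71), were likewise nested in a site mismatched at position 3. So were those in *GFOD1* (66 tags, 6.59) and in *SLIT3*, a secreted axon guidance ligand (75 tags, 5.16). The peak in *RYK*, a Wnt co-receptor (51 tags, 6.33), had A8G as its only mismatch in the 11 bases. The one without was the peak in the 3′ UTR of *VSIR*, an immune checkpoint receptor (44 tags, 9.31), which matched 5 bases and had 3 mismatches in the 11. The next peak at 6 bases, in an intron of *IQCJ-SCHIP1* (41 tags, 8.41), had no such site either and was singled out after its values were seen.

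The summit lay in a protein-coding gene body at 307 peaks (48.3%, 44.5 to 52.2), beside 48.7% of all peaks and 42.5% (39.0 to 46.0) at longer matches. It lay in an intron at 287 peaks (45.2%), in a 3′ UTR at 13, in coding sequence at 4 and in a 5′ UTR at 3. The 307 summits fell in 292 genes, of which 13 held more than 1 and *CELF4* held 4. The leading site was on the coding strand of the gene in 48.5% of cases. No partial-match peak overlapped any of the 5 genes examined in the study, *PLAU*, *TGFBR3*, *GAPDH*, *SH2D3C* and *FAM221A*. Only 3 peaks of any kind did, too few for this absence to be informative.

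Promoters, taken as the 2 kb upstream of a transcript start, were more frequent among the partial matches than in the other groups. Summits in such a region numbered 46 of 635 (7.24%, 5.47 to 9.53), against 2.31% (1.97 to 2.71) at matches under 5 and 3.55% (2.45 to 5.12) at longer matches. The median distance to the nearest start was 25847 bp, against 38615 bp and 36059 bp. GC content within 70 bp of the summit differed as well, with medians of 47.5% in the 635 peaks, 39.0% at matches under 5 and 50.4% at longer matches. The part of GC content in the promoter share was not tested. Within bands of GC content, the promoter share was 5.81% (3.08 to 10.7) against 3.53% (2.45 to 5.06) at matches under 5 from 45 to 50% GC, and 12.1% (7.24 to 19.7) against 4.39% (1.89 to 9.86) from 55% upwards. It was the higher one in all 5 bands compared, each time with overlapping intervals. At 5 to 7 bases the promoter share was 8.47% with a 1-mismatch site and 8.43% without one, and over all lengths 5.68% and 9.43%. Fold enrichment in promoters was not higher, with a median of 4.51 against 4.57 in all 635.

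The promoter peaks with the highest fold enrichment matched 8 or 10 bases in most cases. That upstream of *HAPLN2* was 367 bp from the start. The peak in *BNIPL*, within 2 kb upstream of *C1orf56*, had 42 tags and 8.41, and that upstream of *SYCN*, a zymogen granule protein, had 38 tags and 7.21. The peaks upstream of *SSTR2*, a somatostatin receptor (35 tags), and in the 5′ UTR of *TK2*, the mitochondrial thymidine kinase (30 tags), both had 6.31. The peak upstream of *ATP5PO*, a subunit of the mitochondrial ATP synthase, matched 5 bases without a 1-mismatch site and had 46 tags and 6.19. All 46 promoter peaks had a median fold enrichment of 4.51. The 4 peaks over coding sequence had one of 4.355. They lay in *PACSIN1* (26 tags, 4.81), *XPNPEP2* (25 tags, 4.50), *ACSL6* (19 tags, 4.21) and *NGLY1* (25 tags, 3.61).

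Among 16 genes of the DNA methylation machinery, 13 peaks of any kind overlapped, and 1 of them was a partial match. It lay in an intron of *TET3*, which oxidises 5-methylcytosine, at a fold enrichment of 5.71 with 31 tags. The score there was 50.86, and FDR was estimated at 90.14%. Its site matched 8 bases, with G9C as the only mismatch in the 11, and lay 11 bp from the summit.

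Matches to the other gRNAs were counted as well. A seed of T1, T3, T4 or T5 with an NGG PAM lay near the summit of 50 of the 635 peaks (7.87%). A T3 seed was found at 2.83% of the peaks (1.80 to 4.44), against 1.31% (1.06 to 1.62) at T2 matches under 5 and 1.18% at 11 or more. For T5 the share was 3.62% (2.43 to 5.38), against 1.86% (1.55 to 2.22) and 2.11%. These seeds were thus more frequent here than at matches under 5, and their part in the peaks was not tested. GC content also differed between these groups (medians of 47.5% and 39.0%), and the seeds were not compared within bands of GC content. For T4 the share was 1.57%, against 0.976% at matches under 5 and 20.1% at 11 or more, and for T1 it was 0.630%, against 0.519% and 0.395%. A T2 match of 11 or more bases at an NAG motif was near the summit of 12 peaks, and an 11-base match with NGG lay elsewhere in 13 peaks. Without these peaks, 610 remained, with the median fold enrichment at 4.57 on rounding. Of the 635 leading sites, 604 occurred once in the genome-wide census.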

How the data were processed

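Peaks of 1 ChIP sample (HEK293T, dCas9-BFP-DNMT3A with *uPA* gRNAs) were analysed; the input entered only through the peak call. The authors mapped single-end reads of 49 bp to hg19 with SOAP2, drew equal numbers of unique reads from both samples, and ran MACS 1.4.2 at *P* 0.001 (band width 300 bp, fragments of 200 bp, at most 1 tag per position). The depth was 62723055 ChIP and 62723050 input tags, of which 44934315 and 46375481 were kept. The deposited tag counts are whole numbers and are not normalized. The deposited fold enrichment is a ratio over local background. The deposited score gives *P* as -10 log10, and the deposited FDR is a percent.

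From these, the summit was taken as start plus offset less 1. T2 sites were read from GRCh37 on both strands, with the guide taken from the study's list of oligonucleotides, and every NGG site on chromosomes 1 to 22 and X was counted by match length. Left out were 8 peaks on other contigs and 1 on chromosome Y. Gene context came from protein-coding transcripts tagged basic in GENCODE 44 lifted to GRCh37. Shares have 95% Wilson intervals and medians order-statistic intervals. Site searches were tested on simulated data. Python 3.11.15, numpy 2.4.6, pandas 2.3.3 and scipy 1.17.1 were used. Named peaks were the 3 with the highest fold enrichment at each length, 6 in promoters, 5 in coding sequence, 5 with the most sites, and those in listed genes; only 4 peaks lay in coding sequence. Members and lists were chosen with earlier results of these data known. Alternatives were another window (35 bp), site definition, *P*, PAM, summit, annotation and site count.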

Additional observations from a re-analysis of the deposited data

How the results depend on the processing

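Of 84 values recomputed under 14 alternatives, 64 stayed within the counting interval of the reported value (for the number of peaks, within 1.5 times), 20 moved, and none changed direction. With a window of 35 bp, the median fold enrichment was 4.81, the share of genomic 5-base sites near a summit 0.150% and the share of peaks with 2 or more sites 13.8%. With seed and PAM whole inside the window, the share of 5-base sites was 0.180%. With a score of at least 50 required, 194 peaks remained, with a median of 5.91, shares of 5-base and 10-base sites of 0.0882% and 4.49%, G at 48% after 5 bases, A at 88.9% after 10 bases, and 43.8% in genes. With NAG also accepted as PAM, the median was 4.21, the shares of 5-base and 10-base sites 0.129% and 5.09%, and 20.02% of peaks had 2 or more sites. Counting all annotated genes, 67.1% of summits lay in genes. With nearby sites counted as 1 cluster, the share of 5-base sites was 0.174%. Of the alternatives, 4 were chosen after seeing the data. Without sites near an 11-base match the shares were 0.0668% (5 bases) and 8.41% (10 bases), and without those near a 1-mismatch site as well 0.0406% (5 bases). Leaving out the 25 peaks with an 11-base match at NAG or elsewhere in the peak, or the 108 whose leading site was nested, kept all values within their intervals. The last left a median of 4.51.

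No paired analysis was possible because there was 1 ChIP sample. Spread between replicates is unknown, the tags of the input are not in the list, and an FDR of 100% was estimated for 66.1% of the 635 peaks and 81.7% of all peaks.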
